A study of Rattus norvegicus with 4 samples.

Results

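The m6A writers and erasers are the enzymes and partner proteins that place N6-methyladenosine (m6A) on RNA and remove it. The 10 genes described here were chosen by name and not by their peak values, though earlier results of these data were known. They comprise 8 writer genes (Mettl3, Mettl14, Wtap, Virma, Zc3h13, Rbm15, Rbm15b and Cbll1) and 2 eraser genes (Fto and Alkbh5). They were found in the peak lists by NCBI gene ID. Of the 10 genes, 9 had a listed m6A peak, among 8729 genes with a peak in all. Rbm15b had none in either list.

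The cells were cardiac fibroblasts (CFs) from the hearts of newborn wild-type Sprague-Dawley rats. They were transfected for 48 h with an empty expression plasmid (Vector) or with the same plasmid carrying rat FTO cDNA (FTO). In m6A-seq, RNA fragments bound by an m6A antibody (IP) are sequenced beside the unselected RNA (input), and peaks are called where IP fragments outnumber the input. Each group had 1 IP and 1 input library, and the labels do not say how many hearts or cultures were pooled. Thus no difference below has a replicate check, and no test was made. The lists hold a name, a length in bp and a transcript for each peak, and a gene ID for all but 248 Vector peaks and 213 FTO peaks. Height, enrichment and place on the transcript were not analysed here, and the sequencing depth is unknown.

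METTL3 carries the methyltransferase activity of the main writer, which uses S-adenosylmethionine as methyl donor, and METTL14 is its partner that helps hold the RNA. WTAP, VIRMA, ZC3H13, RBM15, RBM15B and HAKAI (the product of Cbll1) form the regulatory part that directs the enzyme to its RNAs in the nucleus. FTO and ALKBH5 are iron- and 2-oxoglutarate-dependent dioxygenases that oxidize the methyl group away. In the heart these enzymes are studied in muscle cell growth and in the activation of fibroblasts. The question put to the lists was whether the transcripts that encode this machinery carried other m6A peaks when FTO was overexpressed.

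The FTO list was the shorter one, with 17796 peaks against 21249 in the Vector list, a ratio of 1.194. The writers and erasers together had 38 Vector peaks and 45 FTO peaks, and 35 and 36 when Fto itself was left out. Peak numbers were lower in the FTO list for 1 of the 9 genes with peaks (Zc3h13), equal for 5 (Mettl3, Mettl14, Rbm15, Cbll1 and Alkbh5) and higher for 3 (Fto, Wtap and Virma). Across all 8729 genes, fewer FTO peaks were listed for 41.4%, as many for 37.4% and more for 21.2%. The median difference was 0 over the 9 genes and 0 over all genes. Counting only peaks of at least 100 bp, the FTO list had fewer for 3 of the 9 genes, as many for 4 and more for 2, where the shares over all genes were 38.5%, 40.6% and 21.0%. At a minimum of 200 bp the numbers were 0, 7 and 2, beside 27.5%, 53.8% and 18.6% of all genes. When FTO numbers were multiplied by 1.194, all 9 genes came out higher, while of all genes 60.1% came out higher and 39.9% lower, since an equal number then counts as a gain. A change in called peaks may come from the methylation of a transcript or from its level, and in a bulk culture fewer cells of a type and less RNA per cell cannot be told apart.

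**Figure D1:**
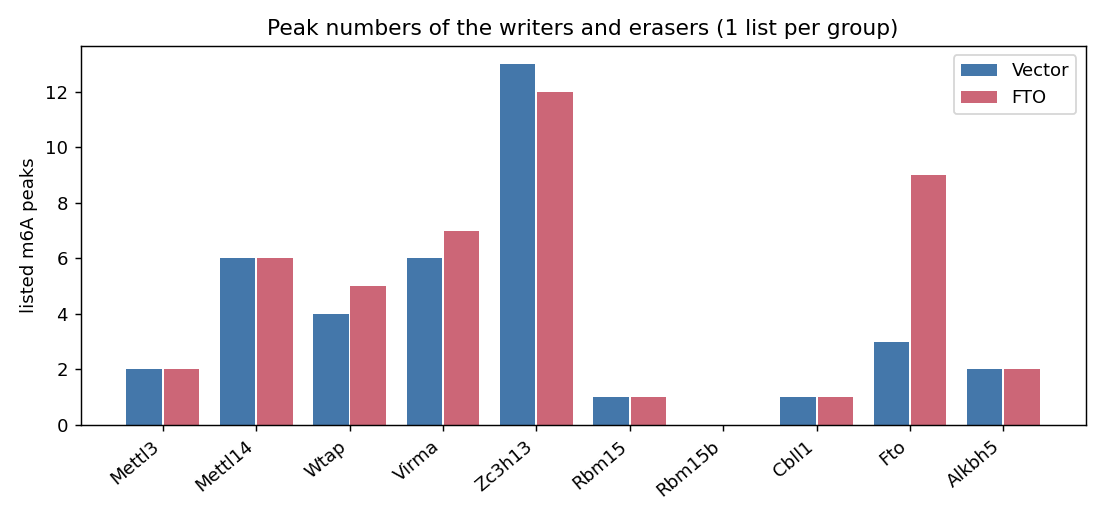
Bars give the number of listed m6A peaks of each gene with Vector (blue) and with FTO (red), with 1 list per group and hence no error bars. Fto stood at 3 and 9, the other genes differed by at most 1, and Rbm15b had no peak.

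Fto (gene ID 291905), the transfected gene, differed most. In the Vector list it had 3 peaks, of 120, 144 and 144 bp in the order of their peak numbers. In the FTO list it had 9 peaks, of 2021, 125, 120, 144, 80, 144, 619, 78 and 60 bp. All 3 Vector lengths recurred in the FTO list in the same order, and the 6 further peaks were listed in the FTO group alone. The peak of 2021 bp was assigned to another transcript (ENSRNOT00000086829) than the other 8 and than the 3 Vector peaks (ENSRNOT00000015718). It was among the longer peaks, since 5.27% of FTO peaks were of that length or more. The summed peak length of Fto was 408 bp for Vector and 3391 bp for FTO, a difference of 2983 bp. The median peak length went the other way, from 144 bp to 125 bp, because 3 of the 6 further peaks were 80 bp or shorter.

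Over the 964 genes with 3 Vector peaks, Fto included, the median number of FTO peaks was 2, where Fto had 9. A gain of 6 peaks or more was listed for 6 genes, Fto included, which is 0.0687% of all genes. The other 5 were Ppl with 1 Vector peak and 12 FTO peaks, Glis3 with 1 and 7, Itpr3 with 4 and 10, Ntn1 with 0 and 6, and Smoc2 with 2 and 8. In summed length Fto stood less apart, since 25 genes, Fto included, gained 2983 bp or more. With peaks of at least 200 bp the gain in Fto was 2 peaks, of 2021 and 619 bp, as no Vector peak reached that length. Fragments of the plasmid transcript and of the cell's own Fto transcript cannot be told apart in these lists.

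Alkbh5 (303193), the other eraser, had peaks of the same lengths in both groups. Its 2 Vector peaks measured 972 and 81 bp, and so did its 2 FTO peaks. Peaks of 972 bp or more made up 14.7% of Vector peaks and 17.2% of FTO peaks.

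**Figure D2:**
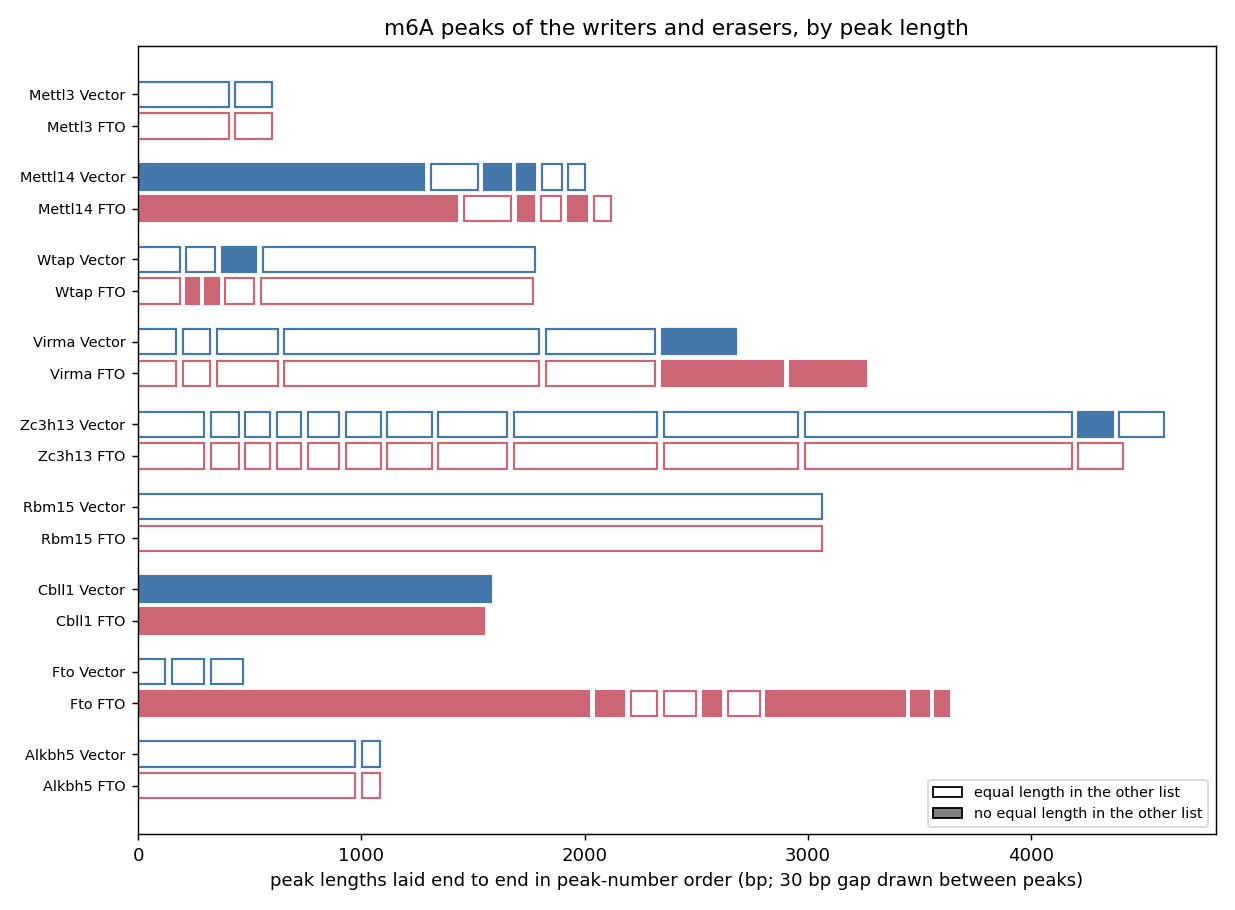
Each box is 1 peak, drawn as wide as its length in bp and laid end to end in peak-number order for each gene and list (Vector blue, FTO red), so the axis does not show genome positions. White boxes have a peak of equal length in the other list and filled boxes have none; the filled boxes of Fto are 6 and all in the FTO list.

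In the core of the writer, 1 gene had the same peak lengths in both lists and 1 had not. Mettl3 (361035), the catalytic subunit, had peaks of 405 and 166 bp in both lists. Mettl14 (295428) had 6 peaks in each list, of which 3 were of equal length. In number order its Vector peaks measured 1280, 211, 117, 81, 88 and 76 bp, and its FTO peaks 1428, 211, 76, 88, 89 and 76 bp. Thus the longest peak of Mettl14 was 148 bp longer in the FTO list, while its median peak length was lower, at 88.5 bp against 102.5 bp. The Vector peaks of 117 and 81 bp had no FTO peak of equal length. With peaks of at least 100 bp Mettl14 had 1 FTO peak fewer than Vector peaks.

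Zc3h13 (305955), the zinc finger subunit that keeps the writer in the nucleus, carried the most peaks of the group, with 13 Vector peaks and 12 FTO peaks. Its Vector lengths in number order were 294, 126, 112, 109, 140, 155, 198, 308, 642, 601, 1197, 153 and 201 bp. The FTO list gave the same run without the peak of 153 bp, so that 12 lengths recurred in the same order. The difference of 1 peak turned to a gain of 1.33 when FTO numbers were scaled by the list sizes, and to 0 with peaks of at least 200 bp. Of all genes, 61 had more Vector peaks than Zc3h13 and 45 had more FTO peaks. Among the 194 genes with 10 or more Vector peaks, the median share with an FTO peak of equal length was 71.8% and the median difference was -3 peaks. For Zc3h13 the share was 92.3%, and 16 of the 194 genes, itself included, had a share as high or higher.

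Virma (313061), the large scaffold of the regulatory part, had 6 Vector peaks of 169, 123, 273, 1141, 489 and 332 bp. The first 5 recurred in the FTO list in the same order, followed by peaks of 545 and 339 bp. Virma thus had 7 FTO peaks, and its summed length was 2527 bp for Vector and 3079 bp for FTO. With peaks of at least 200 bp, Virma and Fto were the only genes of the group with more FTO peaks.

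Wtap (499020), the adaptor that brings the METTL3-METTL14 pair into nuclear speckles, had 4 Vector peaks of 185, 128, 155 and 1219 bp. Its 5 FTO peaks measured 185, 56, 59, 128 and 1219 bp. The peaks of 56 and 59 bp, listed in the FTO group alone, were short, as 98.2% and 97.9% of FTO peaks were of that length or more. The peak of 155 bp was listed in the Vector group alone. The gain of 1 peak in Wtap therefore turned to a loss of 1 with peaks of at least 100 bp, and the summed length fell from 1687 to 1647 bp.

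Rbm15 and Cbll1 each carried a single long peak. Rbm15 (684233), an RNA-binding protein that recruits the writer to its targets, had 1 peak of 3064 bp in both lists, a length that 1.37% of Vector peaks and 1.61% of FTO peaks reached. It was the longest peak of any writer or eraser. Cbll1 (314028), which encodes the ubiquitin ligase HAKAI, had 1 Vector peak of 1578 bp and 1 FTO peak of 1550 bp, a difference of 28 bp. Rbm15b (315988), the paralog of Rbm15, had no listed peak, though peaks without a gene ID could not be assigned by name.

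**Figure D3:**
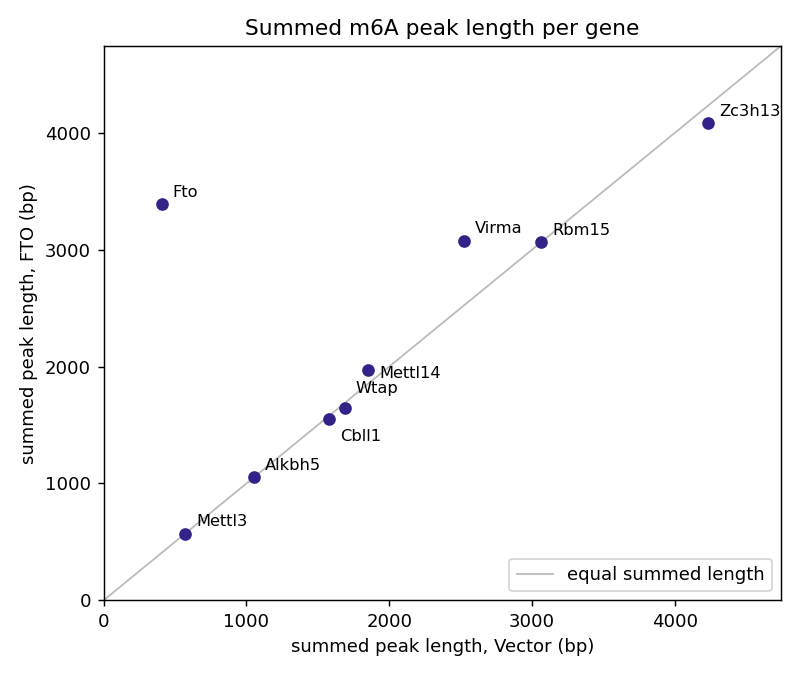
Each point is 1 of the 9 genes with a listed peak, with the summed length of its Vector peaks on the x axis and of its FTO peaks on the y axis, both in bp, and the grey line marks equal sums. Mettl3, Rbm15 and Alkbh5 lie on the line, Zc3h13, Wtap and Cbll1 lie below it by 153, 40 and 28 bp, Virma and Mettl14 lie above it by 552 and 115 bp, and Fto lies farthest above it, at 408 and 3391 bp.

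By length, most Vector peaks of the writers and erasers were listed again with FTO. A peak of equal length in the same gene was found for 31 of the 38 Vector peaks, which is 81.6% (95% Wilson interval 66.6% to 90.8%, counting error only), and for 28 of 35 (80.0%, 64.1% to 90.0%) without Fto. Over all genes 57.3% of Vector peaks had such a partner. From the FTO side it was 31 of 45 peaks (68.9%, 54.3% to 80.5%), against 68.4% of all FTO peaks. Both shares over all genes include genes with peaks in only 1 list, which can have no partner. Every writer or eraser with a peak had peaks in both lists, as had 6462 of all 8729 genes. Peaks of 1 gene share a transcript and are not independent, and 12 of the 31 pairs came from Zc3h13. Every pair within a gene kept the same number order in both lists, which in Mettl14 pairs the Vector peak of 76 bp with the last FTO peak. The 7 Vector peaks without a partner belonged to Mettl14 with 3, and to Wtap, Virma, Zc3h13 and Cbll1 with 1 each. The 14 FTO peaks without a partner belonged to Fto with 6, Mettl14 with 3, Wtap and Virma with 2 each, and Cbll1 with 1. When lengths could differ by up to 10%, 34 of the 38 Vector peaks (89.5%) had a partner, so some of these peaks had a near match.

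The same set of lengths in both lists was found for 3 of the 9 genes, namely Mettl3, Alkbh5 and Rbm15. This was also the case for 28.4% of the 6462 genes with peaks in both lists, for 26.2% of those with 2 Vector peaks, as in Mettl3 and Alkbh5, and for 50.5% of those with 1, as in Rbm15. The share among the writers and erasers was thus near that of all genes. Where a gene had 3 or more peaks, the longest stood first or last in number order for Mettl14 and Wtap in both lists and for Fto, whose Vector peaks of 144 bp tied. In Virma and Zc3h13 the longest peak lay inside the run. Over all genes with 3 or more peaks it stood first or last in 74.2% of 2815 Vector genes and 73.8% of 2286 FTO genes.

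The rest of the m6A pathway was described with 4 gene lists. Of 13 reader genes, whose proteins bind m6A or RNA that carries it, 10 had a peak, and the FTO list had fewer peaks for 1, as many for 3 and more for 6, with 26 Vector peaks and 31 FTO peaks in all. Over all genes the shares were 41.4%, 37.4% and 21.2%. With peaks of at least 200 bp the FTO list had fewer for 0 reader genes, as many for 6 and more for 2, beside 27.5%, 53.8% and 18.6% of all genes. The reader genes differed by at most 1 peak. Ythdf1 and Ythdf2, which encode cytoplasmic readers, had 2 Vector peaks and 3 FTO peaks each. The added FTO peak measured 80 bp in both genes. Ythdc1, which encodes the nuclear reader, had 9 Vector peaks and 8 FTO peaks, and its peak of 90 bp was listed in the Vector group alone. Igf2bp2, Fmr1 and Prrc2a had 1 FTO peak more each, and Hnrnpa2b1 had a peak, of 123 bp, in the FTO list alone. Ythdf3, Ythdc2 and Igf2bp1 had as many peaks in both lists. Of the 26 Vector peaks of the reader genes, 22 had an FTO peak of equal length, beside 57.3% of all Vector peaks. The numbers were 2 of 3 in Igf2bp1 and 1 of 3 in Igf2bp2.

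Of 6 other genes for RNA m6A methyltransferases and their cofactors, 2 had a peak. Mettl16, which encodes a methyltransferase that acts on U6 RNA, had 1 peak of 961 bp in both lists. Pcif1, whose product methylates the adenosine beside the cap, had Vector peaks of 143 and 583 bp and a single FTO peak of 143 bp. Among 7 other AlkB family genes, relatives of Alkbh5, 3 had peaks, and the FTO list had as many for 2 and more for 1. Alkbh8, which encodes a tRNA-modifying enzyme, had 1 Vector peak of 1030 bp and FTO peaks of 1030 and 257 bp. The single peak of Alkbh4 measured 801 bp with Vector and 1573 bp with FTO, and that of Alkbh1 measured 1392 and 1465 bp. The list for supply of the methyl donor held 5 genes, relatives of such genes included. Of these, Ahcyl2 had 1 Vector peak of 123 bp and no FTO peak, and the other 4, Mat2a among them, had no peak. In all, 16 of these 31 genes had a peak, with fewer FTO peaks for 3, as many for 6 and more for 7, beside the same 41.4%, 37.4% and 21.2% of all genes.

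**Figure D4:**
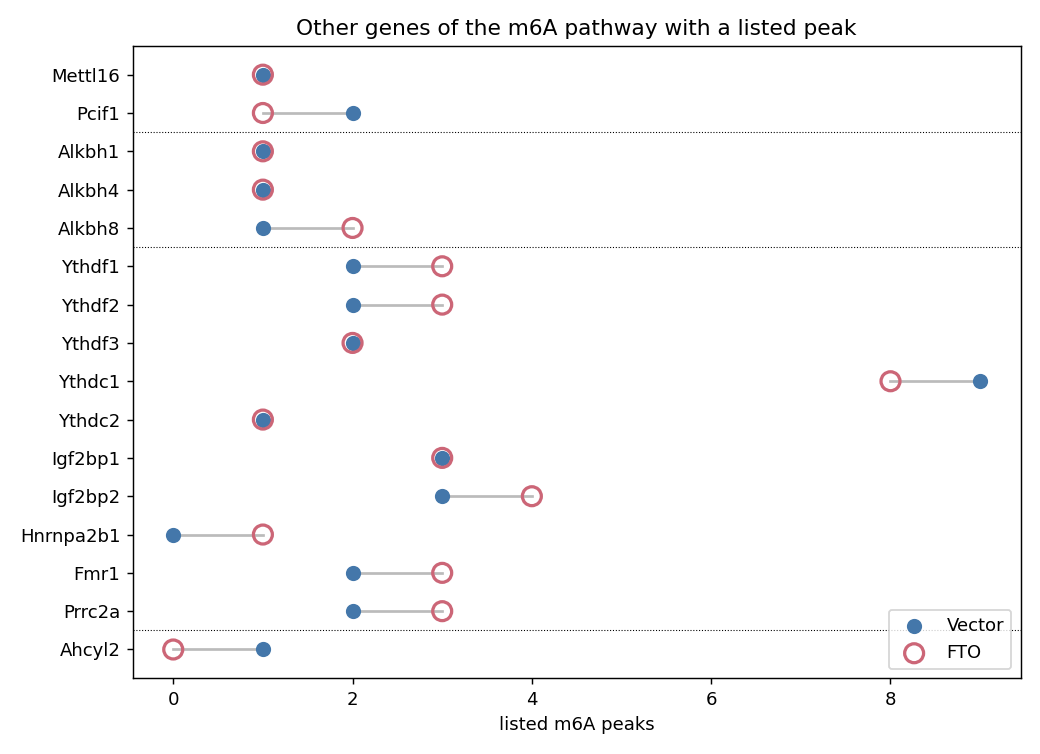
For each of the 16 other pathway genes with a peak, a filled blue point gives the number of Vector peaks and an open red circle the number of FTO peaks, with dotted lines between the 4 lists. No gene differed by more than 1 peak.

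The label of the cells was set against marker genes, although a peak shows only that an m6A-bearing transcript was captured, and the lack of one does not show that a transcript was absent. Of 11 fibroblast markers, 5 had Vector peaks and 5 had FTO peaks, 12 and 11 in all. They were fewer in the FTO list for Pdgfra (7 and 6), Thy1 (2 and 1) and Postn (1 and 0), as many for Tcf21 (1 each) and more for Lum (1 and 2) and Ddr2 (0 and 1), while Col1a1, Col1a2, Col3a1, Dcn and Vim had none. Of 8 cardiomyocyte markers, 6 had Vector peaks and 5 had FTO peaks, 23 and 25 in all. They were fewer for Myh7 (8 and 5) and Actn2 (1 and 0), as many for Myh6 (7 each) and Tnni3 (1 each), and more for Tnnt2 (4 and 7) and Ryr2 (2 and 5), while Ttn and Nppa had none. Myh6 and Myh7 are near-identical copies that may share reads. Of 5 macrophage markers, 3 had Vector peaks and 2 had FTO peaks, 8 and 2 in all, with 4 and 0 for Cd163, 2 and 0 for C1qa, 2 and 1 for Csf1r, 0 and 1 for Cd68 and none for Adgre1. Of 6 mural markers, Myh11 had 17 Vector peaks and 15 FTO peaks, Pdgfrb had 1 in each list and the other 4, Acta2 among them, had none. Of 5 endothelial markers, Tek had 2 FTO peaks and no Vector peak, and the other 4 had none. Over all genes, fewer FTO peaks were listed for 41.4%, as many for 37.4% and more for 21.2%. The part of other cell types in the peaks of the writers and erasers was not tested.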

How the data were processed

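m6A-seq was performed by the authors on 4 libraries, 1 IP and 1 input in each of the Vector and FTO groups. The sample titles call the groups Control and Treat, read here as Vector and FTO. The authors deposited 1 peak list per group, in which the value is the peak length in bp, not normalized. Names of peaks start with MACS. The submitters' processing notes name cutadapt 1.9.3, HISAT2 2.0.4 and the genome build rn6. The caller's settings and threshold are not given in the sources used here. Library sizes were not used.

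Genes were matched by gene ID to symbols in the RefSeq table of GRCr8, from which names alone were taken. A peak is 1 row, and no peak name was repeated within a list. A gene is the gene ID or, without one, the transcript. Since positions were not used, peaks were paired 1 to 1 by gene and equal length. The pairing was checked on lists simulated from the Vector list, in which retained peaks kept their exact length. Such a check cannot show that peaks of equal length are the same peak. Every member was named. In the other pathway lists, genes were to be named that had peaks in 1 list alone or the largest difference, ties included, and Fto was set beside genes that gained as many peaks. Mettl16, Alkbh1, Alkbh4, Mat2a, Ythdf3, Ythdc2, Igf2bp1 and markers were named after their values were seen. The members and lists were chosen with earlier results of these data known. Alternatives were minimum lengths of 100 and 200 bp, scaling by list size, 1 transcript per gene, repeated names counted once, and other partner rules. With 1 list per group no p-value was computed. Python 3.11.15, numpy 2.4.6, pandas 2.3.3, scipy 1.17.1 and matplotlib 3.10.9 were used.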

Additional observations from a re-analysis of the deposited data

How the results depend on the processing

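Of 120 values under the alternatives, 23 were set aside as unable to change. They were all values with repeated names counted once (no name was repeated), those of Rbm15b, and Vector numbers when FTO numbers were scaled. Of the other 97, 60 stayed within 1.5 times the value given, or, for the share of peaks with a partner, within its interval. That interval treats peaks of 1 gene as independent, which they are not. The 60 include further values that could not change. Only Fto in the FTO list had peaks on 2 transcripts, so 1 transcript per gene could alter only values counting those peaks. Mettl3, Rbm15 and Alkbh5 had the same lengths in both lists, so minimum lengths left their difference at 0. Thus 60 overstates how stable the values were. At a minimum length of 200 bp, the writers and erasers had 17 Vector peaks and 20 FTO peaks, 17 and 18 without Fto, and 0 genes had fewer FTO peaks. At a minimum of 100 bp, 3 genes had fewer (Wtap, Mettl14 and Zc3h13), and Wtap turned from a gain to a difference of -1. Scaling the FTO numbers by the list sizes left 0 genes with fewer, 0 with as many and 9 with more, and Zc3h13 turned to a gain of 1.33. When every peak of a gene could serve as partner, the paired share of Vector peaks was 97.4%. The median peak length fell by 14 bp in Mettl14 and fell by 19 bp in Fto, while the longest peak rose. The lower peak numbers under minimum lengths, and the changes under scaling and the wider partner rule, follow from their construction. Changes in a difference under a minimum length, as in Wtap, depend on which list held the short peaks. No paired analysis was possible because there is 1 list per group. No replicate could be left out for the same reason. As the depth is unknown, its part in the peak numbers could not be removed.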

Other observations

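The listed genes next to Fto by peak number were looked at after the values of Fto had been seen. Irx3 and Irx5, homeobox genes whose peaks were numbered before those of Fto with no other listed gene between, had 1 peak each in both lists, of 775 bp (Vector) and 1059 bp (FTO) for Irx3 and of 905 and 938 bp for Irx5. Rpgrip1l, numbered next after Fto in both lists, had 1 Vector peak of 299 bp and 3 FTO peaks of 59, 299 and 453 bp. The peak numbers of Fto ran over 5 numbers with Vector and 15 with FTO, of which 2 and 6 were not listed for any gene. Such gaps were also found in Mettl14 (2 with Vector and 1 with FTO), Wtap (1 and 2) and Virma (1 and 2), and none in Zc3h13, Mettl3 and Alkbh5. Over the whole lists most numbers were not listed. The highest peak number was 59557 with Vector and 52060 with FTO, for 21249 and 17796 listed peaks.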
